A study of Mus musculus with 12 samples.

Results

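The 45 genes described here encode kinetochore, centromere and spindle checkpoint proteins. They were taken by symbol from a list drawn up with earlier results of these data known, and each symbol matched 1 of the 55487 genes listed in the deposited tables. They fell into 7 roles, namely centromeric chromatin and its loaders (4 genes), the inner kinetochore (12), the outer kinetochore (10), the SKA complex (3), the spindle checkpoint and corona (11), the chromosomal passenger complex (2) and the protection of cohesin (3). RNA came from G1E-ER4 cells, a mouse erythroid line without GATA1 that carries a form of this transcription factor switched on by estradiol. Every culture, controls included, was given 100 nM β-estradiol and was harvested after 24 h of differentiation. Cells had been nucleofected with siControl, a control siRNA, or with siZIP10, an siRNA against the zinc importer gene Slc39a10, each in 2 rounds set 24 h apart. A part of the cultures also received 25 µM DTPA, a zinc chelator, from the onset of differentiation. The 4 groups were thus siControl (3 libraries), siControl plus DTPA (2 libraries used), siZIP10 (3 libraries) and siZIP10 plus DTPA (3 libraries). All groups come from a single cell line, and the labels name no other siRNA against Slc39a10.

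The kinetochore is the protein assembly that attaches a chromosome to spindle microtubules in mitosis. It is built on nucleosomes that hold the histone variant CENP-A. An inner layer of CENP proteins, the constitutive centromere associated network (CCAN), binds this chromatin and recruits an outer layer that grips the microtubule, the KMN network. Checkpoint proteins gather at kinetochores that are not yet attached and delay anaphase. In dividing cells many of these genes are transcribed mainly in G2 and mitosis, and the promoters of such genes often carry a CHR element (cell cycle genes homology region) and CCAAT boxes.

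Promoter windows from RefSeq (GRCm38.p6), running from 250 bases before to 50 after the transcription start, matched 40 of the 45 genes. Nsl1, Spc24, Ska1, Zwilch and Incenp were not matched. Both strands were searched for CHR letters (TTTGAA or TTCGAA), for CCAAT and for E2F letters (TTTGGCGC, TTTCCCGC, TTTCGCGC or TTTGCCGC). A CHR match was found in 23 of the 40 members, or 57.5%, against 16.3% of the 7733 tested genes with such a window and 21.7% of all 27025 genes in the table. CHR letters centred within 50 bases of the start occurred in 19 members (47.5%) and in 4.63% of the tested genes. CCAAT occurred in 28 members (70%) against 44.6% of tested genes, and both CHR and CCAAT in 18 members (45%) against 8.35%. E2F letters occurred in 4 members (10%) against 5.30%. A match is a description of the letters and shows no binding.

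The 4 members left with the lowest share of their siControl level by the double treatment each held a CHR match within 50 bases after the start. Stretches of 26 bases around these matches are given 5′ to 3′, with the CHR letters in capitals, for Cenpf (chr1:189688069-189688094, minus strand, match 3 bases after the start), Bub1b (chr2:118598235-118598260, plus strand, 41 after), Ttk (chr9:83834686-83834711, plus strand, 8 after), Bub1 (chr2:127831830-127831855, minus strand, 15 after), Ska3 (chr14:57826162-57826187, minus strand, 14 before) and Cdca5 (chr19:6085078-6085103, plus strand, 9 before). Ska3 and Cdca5 are shown beside them as members with a match before the RefSeq start. Their longer windows are not shown because more of their bases lie in annotated exons. In the GENCODE annotation Cdca5 starts at 6084983 and Ska3, on the minus strand, at 57826185, so these matches lie within the annotated gene. The double-treated libraries of Ska3 were separate, and those of Cdca5 overlapped with siZIP10. CHR letters centred within 50 bases of the start occurred in 47.5% of all matched members. Of the next lowest members, Spc24 (3.86% of siControl) had no window and Nuf2 (4.72%) held no CHR match. Bub1b held a further match 188 bases before the start, and Cdca5 a further one 17 before it, which its stretch includes.
Cenpf: cggcgggcagTTTGAAtcgctcgtgc
Bub1b: gtcaagagacgttaaaTTTGAAactt
Ttk: gcggggaaatTTCAAAcgtgtttccg
Bub1: gcgcggggaaTTCGAAtcgccggcgg
Ska3: ctgcgcaggaTTCAAAtgtgtagcgc
Cdca5: aaTTTGAAcgTTTGAAgcagcaaagt

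The 120 bases before the RefSeq start are shown for 3 members with a CHR match there and for Zwint. Zwint was the member with the highest level under the double treatment. The last 10, 20 and 10 bases of Kntc1, Cenpw and Cenpn lie in an annotated exon of the gene, as does the last base of Zwint. For Kntc1 and Cenpn the CHR letters fall wholly within that exon. Capitals mark CHR, CCAAT and E2F letters on either strand. The windows are Kntc1 (chr5:123749606-123749725, plus strand), Cenpw (chr10:30200541-30200660, minus strand), Cenpn (chr8:116921620-116921739, plus strand) and Zwint (chr10:72654726-72654845, plus strand).
Kntc1: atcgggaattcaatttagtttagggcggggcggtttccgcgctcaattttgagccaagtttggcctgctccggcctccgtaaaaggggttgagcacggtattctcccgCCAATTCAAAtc
Cenpw: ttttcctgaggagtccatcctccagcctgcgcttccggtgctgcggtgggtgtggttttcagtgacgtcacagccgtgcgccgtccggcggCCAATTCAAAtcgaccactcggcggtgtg
Cenpn: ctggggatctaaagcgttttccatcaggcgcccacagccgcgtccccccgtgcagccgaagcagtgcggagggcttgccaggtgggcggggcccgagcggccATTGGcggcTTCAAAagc
Zwint: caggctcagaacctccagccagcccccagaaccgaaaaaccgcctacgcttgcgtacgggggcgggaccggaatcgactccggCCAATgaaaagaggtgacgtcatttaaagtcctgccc
In Kntc1 and Cenpw the CCAAT and CHR letters overlapped by a single base, and in Cenpn a reversed CCAAT lay just before the CHR letters. The Zwint window held a CCAAT match and no CHR match, and the full windows of Dsn1, Mis12 and Cenpo held no CHR match either. Nor did those of Nuf2, Cenpe, Sgo2a, Cenpi, Cenpp, Ska2, Cenpk and Mad2l1, all left with at most 20% of their siControl level by the double treatment. CHR letters occurred in 13 of the 21 matched members whose response to DTPA was larger with the knockdown and in 10 of the other 19.

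Values are TPM, transcript abundance scaled to a sum of 1000000 in each library, and the depth recovered from them was 19.63 M to 24.69 M reads per library. The deposited values of siControl plus DTPA replicate 3 repeated those of siZIP10 replicate 1 and were left out. The siRNA target Slc39a10 (chr1:46807544-46892852, mm10) stood at 2.78, 2.31 and 2.78 TPM in siControl, at 21.96 and 20.3 TPM with DTPA, at 0.539, 0.507 and 0.837 TPM in siZIP10, and at 5.36, 4.93 and 5.02 TPM in siZIP10 plus DTPA. The knockdown left 23.9% of the siControl level without DTPA, and with DTPA the knockdown changed the gene by −1.86 ± 0.12 (log2 difference ± SE, limma, adjusted p = 3.25e-07), while DTPA raised it in both kinds of cell. The double-treated cells therefore held more Slc39a10 RNA than siControl cells. Across all 11379 genes tested, 34.7% of the calls with DTPA alone were higher calls on the TPM scale, but 47.7% after median-of-ratios scaling and 51.1% after quantile normalization. The same share moved from 42.9% to as much as 54.3% for the knockdown, from 40.1% to 50.2% for the double treatment, from 38.2% to 50.1% for DTPA within the knockdown, from 40.2% to 53.0% for the knockdown within DTPA and from 37.1% to 54.2% for the interaction. The erythroid gene Slc4a1 was expressed in all groups, at 442 to 452 TPM in siControl.

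In siControl the 45 members spanned 3.90 TPM (Cenpu) to 415 TPM (Zwint), with a median of 21.3 TPM against 21.4 TPM over all genes tested. Zwint, Cdca8 and Incenp stood above 100 TPM, and 9 members lay under 10 TPM. All 45 passed the filter of a mean of 1 TPM over the 11 libraries. They lay on 20 chromosomes, with at most 6 on any 1 of them. Summed over the members, TPM went from 1692 to 1728 in siControl to 990 to 1007 in the double-treated libraries. Without Zwint, the sum went from 1286 to 1307 TPM in siControl to 832 to 837 TPM with DTPA, 736 to 764 TPM in siZIP10 and 450.0 to 458 TPM with both, which was 35.2% of siControl.

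**Figure D1:**
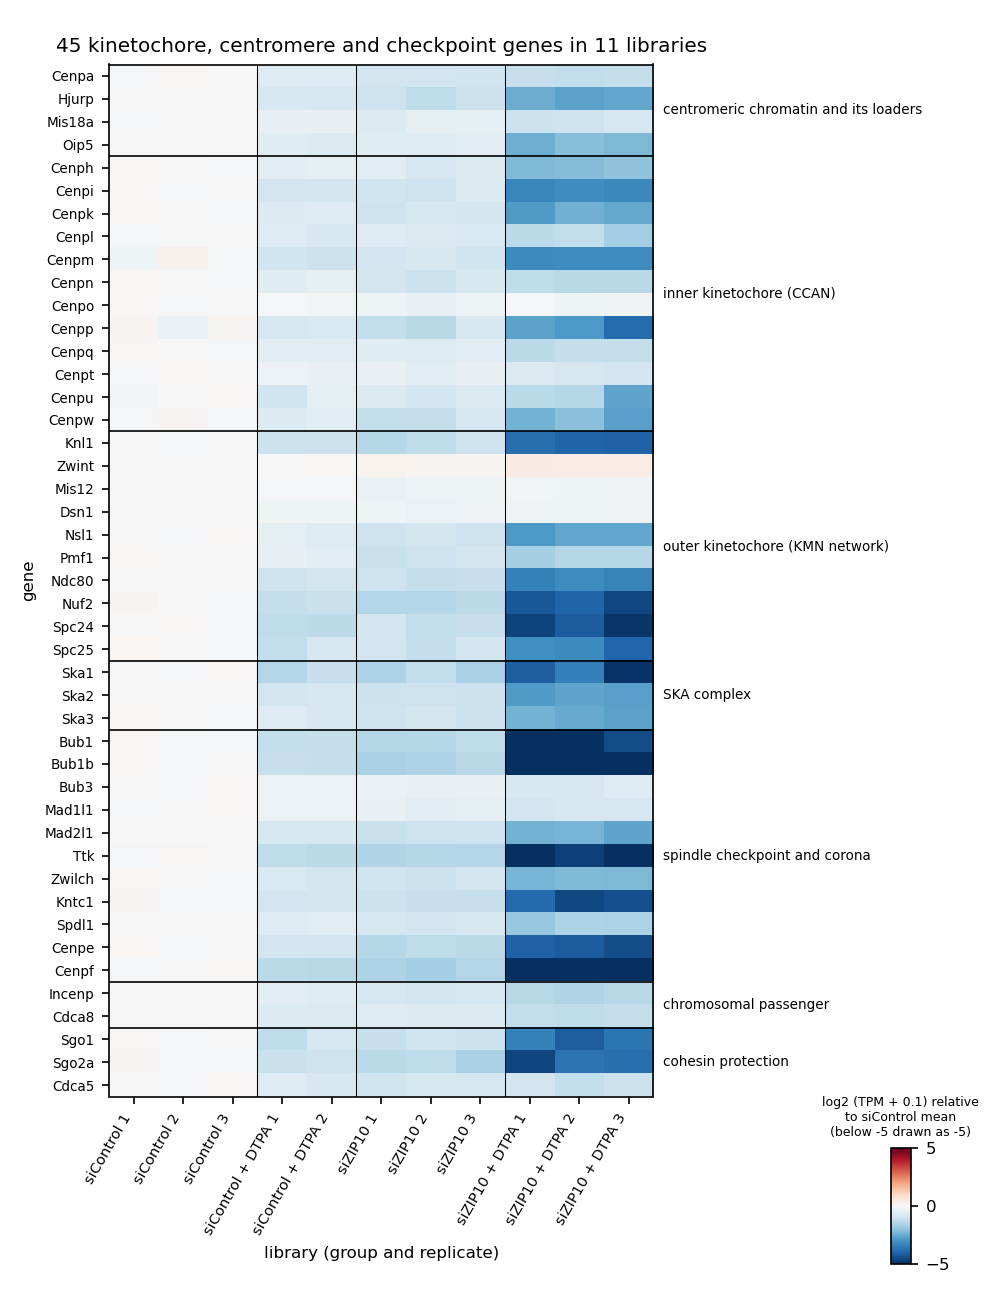
Level of each of the 45 members (rows, grouped by role) in each of the 11 libraries (columns), as log2 of TPM plus 0.1 relative to the siControl mean; blue is lower and red is higher, and values below −5 are drawn as −5. The 3 siZIP10 plus DTPA libraries were lower than all others for 40 of the 45 members (31.1% of tested genes), while Zwint was higher.

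Each treatment alone lowered most members, and the double treatment lowered them much further. With DTPA alone 41 of the 45 members fell and none rose (limma, adjusted p under 0.05). Of all tested genes 28.8% were called, 18.8% as lower. At an unadjusted p under 0.05 also 0 members rose, and limma-voom on recovered reads called 0 members higher. The median log2 difference of the members from siControl was −0.70, against −0.04 over all genes. Cenpo, Cenpu, Zwint and Mis12 did not pass the test. With siZIP10 alone 44 members fell and Zwint rose, where 30.6% of tested genes were called (17.5% lower), and the median was −0.92 against −0.01. With both, 43 members fell, Zwint rose and Cenpo did not pass, where 66.6% of tested genes were called (39.9% lower). The median was then −2.12 against −0.08 over all genes, and 37 members fell by at least 2-fold on the scale of log2(TPM + 1), against 5.42% of tested genes. This scale understates falls of genes with low TPM. These 3 comparisons share the siControl libraries, so they are not independent of each other. In bulk RNA, fewer cells that hold these transcripts and less of them per cell cannot be told apart.

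As shares of the siControl level, the median member stood at 59.8% with DTPA, 49.98% with siZIP10 and 17.9% with both. At most 10% of the siControl level was left for 15 members, against 1.05% of all tested genes, and at most 20% for 24 members, against 1.79%. Every siControl library lay above every other library for 43 members (16.7% of tested genes), the exceptions being Zwint and Cenpo. The DTPA libraries lay below all siControl libraries for 44 members (34.4% of tested genes), and so did the siZIP10 libraries (24.6%). Every double-treated library lay below every other library for 40 members (31.1% of tested genes), the exceptions being Zwint, Cenpo, Cdca5, Dsn1 and Mis12. Group means ran in the order siControl, siControl plus DTPA, siZIP10, siZIP10 plus DTPA for 35 members, against 12.4% of tested genes. Among the roles, the checkpoint and corona genes were left with the lowest median share with both treatments, 5.11%, followed by cohesin protection (7.36%), the outer kinetochore (12.2%), SKA (14.7%), the inner kinetochore (25.9%), centromeric chromatin (32.0%) and the passenger genes (39.7%). The last role holds 2 members only, Incenp and Cdca8, and not Birc5 or Aurkb of the same complex.

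**Figure D2:**
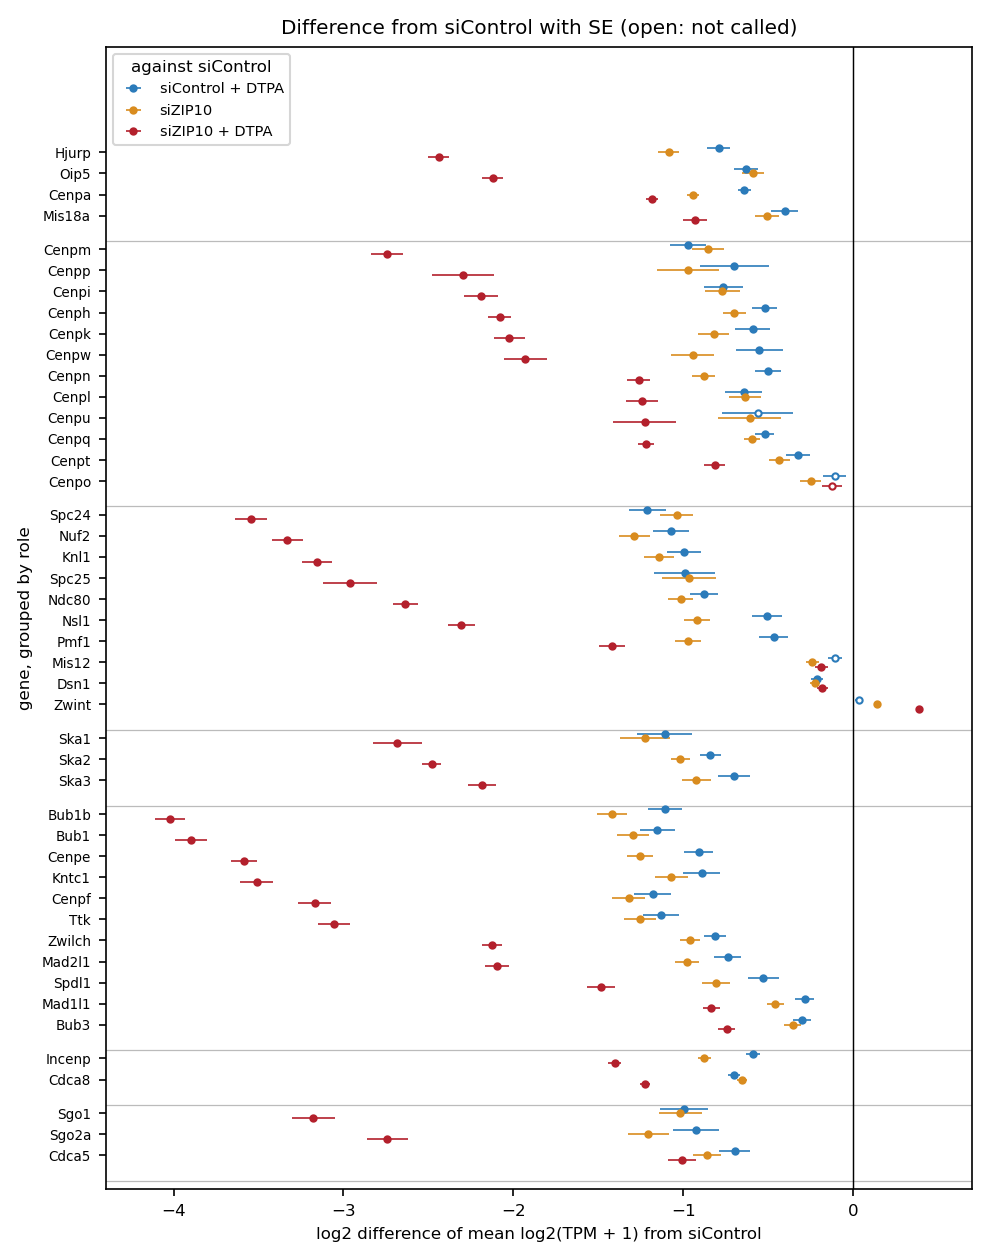
Log2 difference of each member from siControl (x axis, mean log2(TPM + 1) with the SE of the limma fit as bars) for siControl plus DTPA (blue), siZIP10 (orange) and siZIP10 plus DTPA (red), with genes grouped by role; open points did not pass an adjusted p of 0.05. Bub1b and Bub1 reached −4.02 and −3.90 with both treatments, while Mis12, Dsn1, Cenpo and Zwint lay between −0.19 and 0.39.

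All 4 genes of centromeric chromatin fell in each of the 3 comparisons. Beside this count and those of the other roles below, 18.8%, 17.5% and 39.9% of tested genes were lower with DTPA, siZIP10 and both. Cenpa, the histone variant itself (chr5:30666777-30674830, mm10), stood at 85.9, 92.5 and 88.2 TPM in siControl, at 56.6 and 56.8 TPM with DTPA, at 46.7, 45.8 and 44.8 TPM in siZIP10 and at 39.9, 37.6 and 38.4 TPM with both. The 4 groups did not overlap, and the log2 differences from siControl were −0.64 ± 0.04, −0.94 ± 0.04 and −1.18 ± 0.04 (adjusted p = 2.69e-06, 1.58e-07 and 4.19e-10). Hjurp, the chaperone that deposits CENP-A, went from 40.7, 40.5 and 40.8 TPM to 23.3 and 22.9 TPM with DTPA, to 19.7, 16.97 and 19.3 TPM in siZIP10 and to 7.13, 6.25 and 6.67 TPM with both. Its log2 difference with both was −2.44 ± 0.06 (adjusted p = 1.10e-10), and its 4 groups did not overlap. Mis18a, a subunit of the complex that marks centromeres for new CENP-A, stood at 24.7, 26.1 and 25.9 TPM, at 19.2 and 19.0 TPM, at 16.1, 18.9 and 18.3 TPM and at 12.1, 12.5 and 14.3 TPM in the same order of groups. Its double-treated libraries were the lowest without overlap (−0.93 ± 0.07, adjusted p = 5.86e-07). Its partner Oip5 fell by 2.12 ± 0.06 with both.

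In the inner kinetochore, 10 of 12 CCAN genes fell with DTPA, 12 with siZIP10 and 11 with both. Cenph, the most abundant of them, was measured at 82.5, 78.5 and 76.5 TPM in siControl, at 54.0 and 55.8 TPM with DTPA, at 52.8, 44.3 and 48.3 TPM in siZIP10 and at 17.04, 17.4 and 19.5 TPM with both (−2.08 ± 0.07, adjusted p = 6.53e-10). Its DTPA and siZIP10 libraries were close together, and the double-treated libraries lay far below them. Cenpp, of the CENP-O group, was measured at 9.38, 6.78 and 9.37 TPM, at 4.61 and 5.02 TPM, at 3.54, 3.21 and 4.81 TPM and at 1.26, 1.08 and 0.506 TPM in the same order. It fell by 2.30 ± 0.18 with both (adjusted p = 8.98e-07), while its call with DTPA alone (adjusted p = 0.0263) was lost without either siControl plus DTPA library and without siControl replicate 1 or 3 (adjusted p up to 0.131). Cenpo, a neighbour of CENP-P in the same group, stayed nearly level at 11.9, 10.8 and 11.4 TPM in siControl, 10.5 and 10.4 TPM with DTPA, 9.77, 8.85 and 9.54 TPM in siZIP10 and 11.0, 9.87 and 10.2 TPM with both. Its double-treated libraries overlapped with siControl (−0.12 ± 0.06, adjusted p = 0.0948), and it was lowered by siZIP10 alone (−0.25 ± 0.06, adjusted p = 0.0108).

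The CENP-H, -I, -K and -M genes, whose proteins form 1 subcomplex, ended at 22.7%, 9.48%, 15.8% and 10.7% of siControl with both treatments. Cenpn, whose product binds CENP-A nucleosomes, and its partner Cenpl ended at 39.0% and 36.9%. Cenpq and Cenpu, partners of CENP-O and CENP-P, ended at 42.1% and 29.1%. The DNA-binding pair Cenpt and Cenpw ended at 55.8% and 18.4%. With siZIP10 alone the Cenpu call (adjusted p = 0.0318) was lost when any siControl or siZIP10 library was left out (adjusted p up to 0.0960). With DTPA alone the Cenpw call (adjusted p = 0.0141) was lost without either siControl plus DTPA library (adjusted p up to 0.0964). With DTPA alone, where Cenpu did not pass (adjusted p = 0.0698), it passed without siZIP10 plus DTPA replicate 3, the library in which Cenpu was lowest.

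The KMN network held both genes with under 5% and genes with over 85% of siControl left by the double treatment. With DTPA 8 of its 10 genes fell, with siZIP10 9 fell and Zwint rose, and with both again 9 fell and Zwint rose. Zwint, which links KNL1 to the corona (chr10:72654845-72674964, mm10), was the most abundant member at 421, 407 and 417 TPM in siControl. It stood at 425 and 427 TPM with DTPA, at 463, 450.4 and 460.4 TPM in siZIP10 and at 549, 539.6 and 542 TPM with both. The siZIP10 libraries all lay above siControl and the double-treated libraries above all others (0.14 ± 0.02 and 0.39 ± 0.02, adjusted p = 0.00061 and 3.88e-08). The summed TPM of the 10 genes, most of it Zwint, was 659 to 681 in siControl and 666 to 677 with both. With DTPA alone Zwint did not pass on the TPM scale, but it was called higher after median-of-ratios scaling and after quantile normalization (adjusted p = 0.0286 and 0.0178). Nuf2, of the microtubule-binding NDC80 complex, went from 18.8, 16.8 and 16.03 TPM to 7.39 and 7.89 TPM with DTPA, to 6.16, 6.22 and 6.95 TPM in siZIP10 and to 0.809, 0.986 and 0.637 TPM with both. The 4 groups did not overlap, and 4.72% of siControl remained with both (−3.33 ± 0.09, adjusted p = 2.55e-10).

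All subunits of NDC80 were left at low levels, and those of the MIS12 complex spanned a wide range. With both treatments Ndc80, Spc24 and Spc25 were left at 9.49%, 3.86% and 9.38% of siControl, and Knl1, the scaffold of the checkpoint proteins, at 6.05%. In the MIS12 complex, which joins NDC80 to the centromere, Nsl1 and Pmf1 were left at 15.0% and 35.0%, but Mis12 and Dsn1 at 87.6% and 88.0%. Mis12 stood at 47.1, 45.4 and 45.8 TPM in siControl and at 41.6, 39.3 and 40.3 TPM with both, and Dsn1 at 78.4, 77.8 and 79.2 TPM and at 70.1, 68.4 and 68.7 TPM. Both sets were separate, with small differences of −0.19 ± 0.04 and −0.18 ± 0.03 (adjusted p = 0.00132 and 0.000366). After quantile normalization neither passed (adjusted p = 0.165 and 0.434). With DTPA alone Mis12 did not pass (adjusted p = 0.0871), and it passed without siZIP10 replicate 1.

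**Figure D3:**
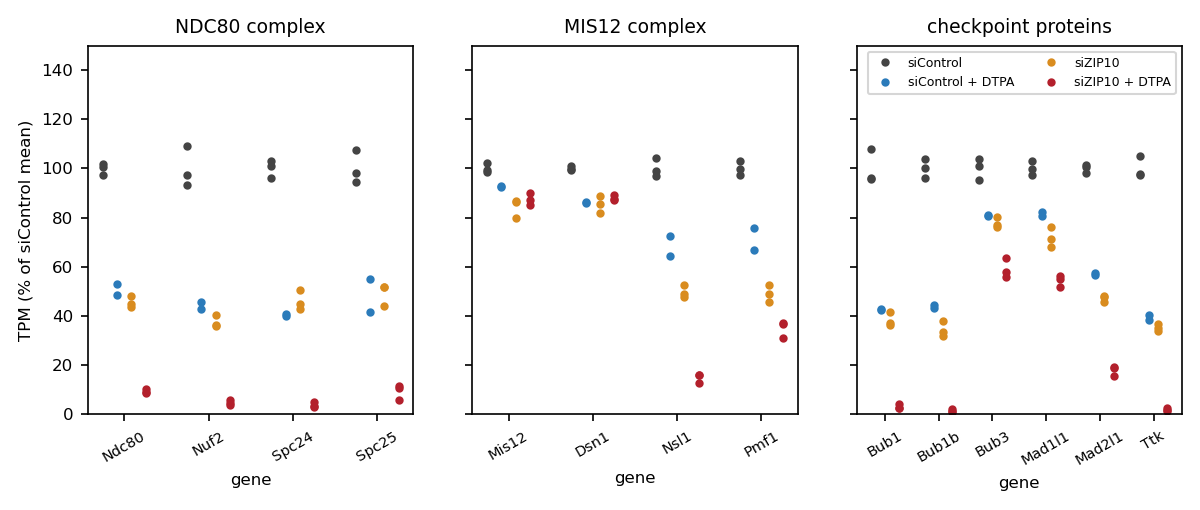
TPM of each library as a percentage of the siControl mean (y axis) for the genes of the NDC80 complex, the MIS12 complex and 6 checkpoint proteins (x axis); each point is 1 library and colours are the groups. With both treatments the 4 NDC80 genes averaged 3.86% to 9.49%, whereas Mis12 and Dsn1 stayed at 87.6% and 88.0% on average.

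The 3 SKA genes, whose products stabilize NDC80 on microtubules, fell in all 3 comparisons. Ska2 was measured at 24.8, 25.5 and 24.8 TPM in siControl, at 13.0 and 14.1 TPM with DTPA, at 11.7, 12.1 and 11.8 TPM in siZIP10 and at 3.39, 3.93 and 3.70 TPM with both (−2.48 ± 0.06, adjusted p = 6.28e-11). Its groups did not overlap and followed the common order. Ska3 was measured at 16.4, 15.1 and 14.4 TPM, at 9.69 and 8.39 TPM, at 7.46, 8.05 and 7.28 TPM and at 2.90, 2.58 and 2.29 TPM in that order (−2.18 ± 0.08, adjusted p = 2.87e-09). Ska1 was measured at 7.98, 7.38 and 8.04 TPM, at 2.75 and 3.44 TPM, at 2.64, 3.25 and 2.44 TPM and at 0.354, 0.631 and 0.162 TPM. The last 3 values rest on 7, 14 and 3 reads, and the DTPA and siZIP10 libraries of Ska1 overlapped. Its fall with both was −2.68 ± 0.14 (adjusted p = 3.82e-08), or −4.15 with a pseudocount of 0.1.

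All 11 checkpoint and corona genes fell in each of the 3 comparisons, and 9 of them by at least 2-fold with both treatments. Bub1b, which encodes the anaphase inhibitor BUBR1 (chr2:118598211-118641591, mm10), went from 21.2, 19.6 and 20.4 TPM in siControl to 9.08 and 8.81 TPM with DTPA, to 6.51, 6.85 and 7.72 TPM in siZIP10 and to 0.474, 0.225 and 0.270 TPM with both. Only 15, 8 and 8 reads were left in those last libraries, and the log2 difference was −4.02 ± 0.09 (adjusted p = 5.71e-11). Bub1, the kinase that recruits BUBR1, went from 28.3, 25.2 and 25.1 TPM to 11.2 and 11.3 TPM, to 9.73, 9.56 and 10.9 TPM and to 0.683, 0.718 and 1.09 TPM in the same order. All its groups were separate (with both −3.90 ± 0.09, adjusted p = 9.54e-11). Bub3, the adaptor of both, was the most abundant at 53.7, 50.6 and 55.2 TPM in siControl and kept 59.0% of its siControl level with both. It stood at 43.0 and 42.9 TPM with DTPA, at 42.6, 40.5 and 40.8 TPM in siZIP10 and at 30.8, 29.6 and 33.7 TPM with both (−0.74 ± 0.05, adjusted p = 2.15e-07).

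Kntc1, a subunit of the RZZ complex that carries dynein and MAD1 to the kinetochore, stood at 24.7, 21.3 and 21.9 TPM in siControl. It fell to 11.6 and 11.8 TPM with DTPA, to 10.7, 10.0 and 10.0 TPM in siZIP10 and to 1.42, 0.859 and 0.976 TPM with both (−3.51 ± 0.10, adjusted p = 2.40e-10). Its partner Zwilch ended at 20.7% of siControl and Spdl1, the dynein adaptor Spindly, at 30.9%, against 4.79% for Kntc1. The least RNA of all members was left of Cenpf, a large corona protein, at 8.35, 8.57 and 8.95 TPM in siControl and at 0.0613, 0.109 and 0.0374 TPM with both. Its 25 reads over the 3 double-treated libraries, against 2756 in siControl, give 0.832% of siControl with an exact 95% binomial interval of 0.537% to 1.23%, which covers counting error only. For Ttk, the checkpoint kinase MPS1, 20 reads against 896 gave 2.05% (1.24% to 3.18%), and for Bub1b 31 against 1814 gave 1.57% (1.06% to 2.23%). On the scale of log2(TPM + 1) the falls of Cenpf and Ttk were −3.17 and −3.06, and with a pseudocount of 0.1 they were −5.71 and −5.03. Cenpe, the kinesin of the corona, was left at 5.11%, Mad2l1 at 17.9% and Mad1l1, which encodes the partner of MAD2, at 54.4%.

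**Figure D4:**
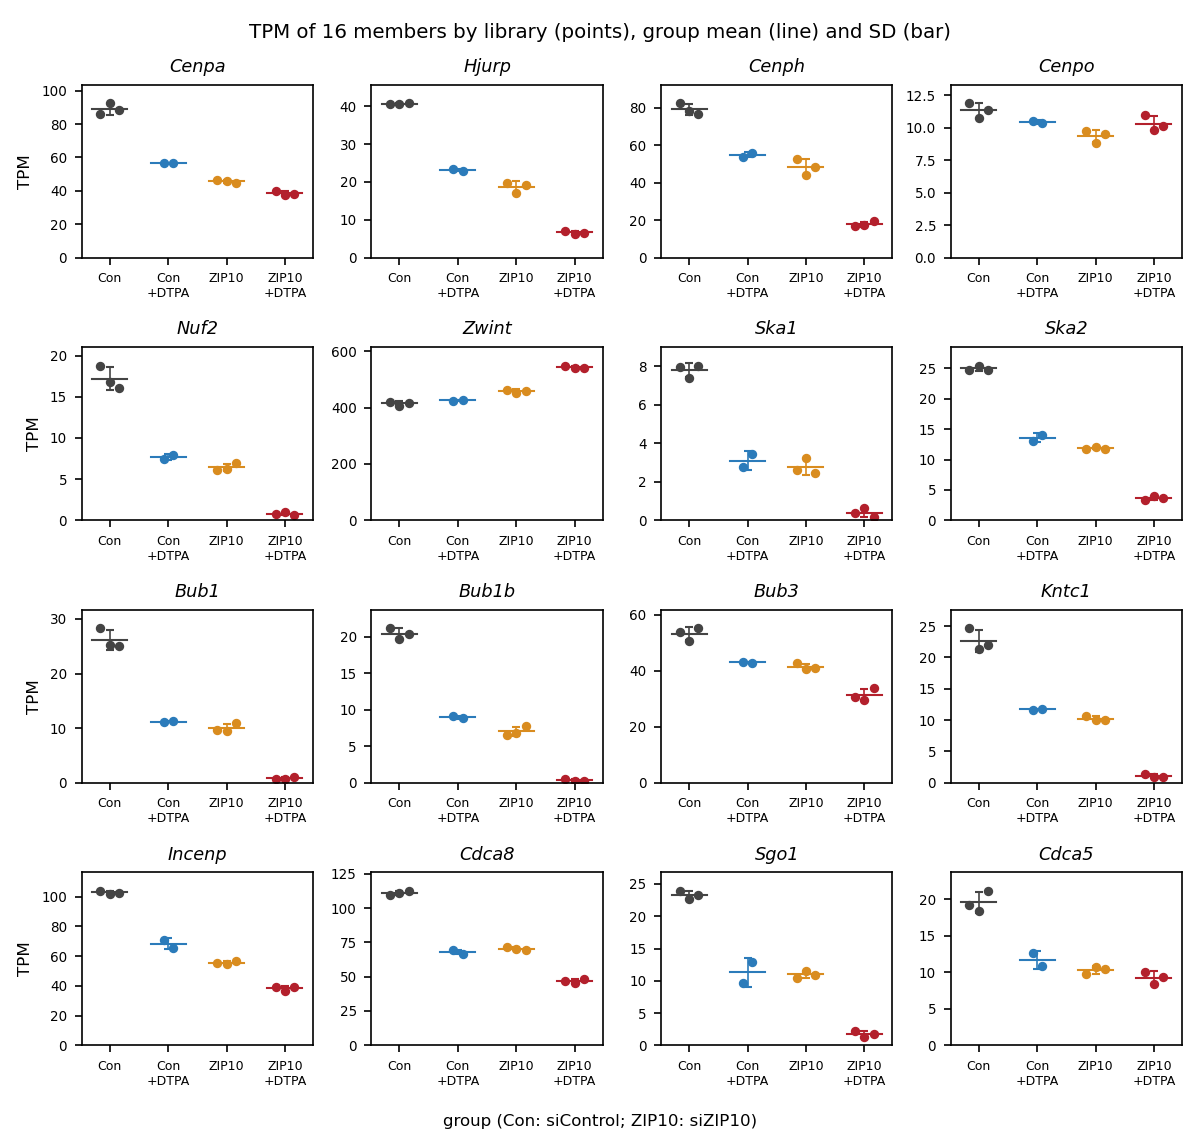
TPM (y axis, from 0) of 16 members by group (x axis, Con for siControl and ZIP10 for siZIP10); points are libraries, horizontal lines group means and bars the SD. Double-treated libraries of Bub1, Bub1b, Kntc1 and Nuf2 lay at or under 1.42 TPM, while those of Zwint lay above all others and those of Cenpo among them.

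Both members from the chromosomal passenger complex fell in each of the 3 comparisons. Of its genes outside the members, Birc5 and Aurkb were left at 3.07% and 4.67% of siControl with both treatments. Cdca8, which encodes borealin, stood at 109, 111 and 113 TPM in siControl, at 69.1 and 66.7 TPM with DTPA, at 71.5, 69.9 and 69.4 TPM in siZIP10 and at 46.8, 45.7 and 48.3 TPM with both (−1.23 ± 0.03, adjusted p = 9.73e-11). Its siZIP10 libraries lay above its DTPA libraries. Incenp, the scaffold of the complex, stood at 104, 102 and 103 TPM, at 70.8 and 65.6 TPM, at 55.5, 54.8 and 56.4 TPM and at 39.3, 36.4 and 39.3 TPM in the same order. Its 4 groups were separate (with both −1.40 ± 0.04, adjusted p = 2.07e-10).

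All 3 genes that protect cohesin fell in each comparison, and Cdca5 fell the least with both treatments. Sgo1, the shugoshin of mitotic centromeres, stood at 24.0, 22.6 and 23.2 TPM in siControl, at 9.69 and 12.9 TPM with DTPA, at 10.5, 11.6 and 10.9 TPM in siZIP10 and at 2.16, 1.23 and 1.74 TPM with both (−3.18 ± 0.13, adjusted p = 3.46e-09). Its relative Sgo2a stood at 9.68, 8.31 and 8.43 TPM, at 4.03 and 4.27 TPM, at 3.39, 3.57 and 2.81 TPM and at 0.270, 0.583 and 0.556 TPM (−2.74 ± 0.12, adjusted p = 7.63e-09). Cdca5, which encodes the cohesin stabilizer sororin, stood at 19.3, 18.4 and 21.2 TPM, at 12.6 and 10.8 TPM, at 9.77, 10.7 and 10.5 TPM and at 10.1, 8.36 and 9.35 TPM. All treated libraries of Cdca5 lay below siControl, and the double-treated ones overlapped with siZIP10 (with both −1.01 ± 0.08, adjusted p = 1.08e-06).

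The direct comparison of siZIP10 with siControl plus DTPA asked whether losing the importer and chelating zinc lowered the members to different levels. Of the 45 members 7 were lower in siZIP10, where 8.41% of tested genes were lower, and Zwint was higher, with 20.8% of tested genes called in either direction, and the median difference was −0.15 against 0.02. The 7 were Pmf1 (−0.50 ± 0.08), Nsl1 (−0.41 ± 0.09), Cenpn (−0.38 ± 0.08), Cenpe (−0.35 ± 0.09), Cenpa (−0.30 ± 0.04), Hjurp (−0.30 ± 0.07) and Incenp (−0.29 ± 0.04). All siZIP10 libraries lay below both DTPA libraries for 31 members, against 20.3% of tested genes. Without either siControl plus DTPA library 4 members passed, the lowest count for any library left out. With the repeated library kept under its label 0 members passed by limma, and 6 did at an unadjusted p under 0.05. In that setting, where the same values stand in both groups, 0 of all 11379 tested genes passed. Cenpe, Hjurp and Zwint were lost without either siControl plus DTPA library, Nsl1 without replicate 1 of that group and Cenpn without its replicate 2. Cenpe was also lost without siZIP10 replicate 1.

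Adding a treatment to the other lowered most members again. In siZIP10 cells DTPA lowered 40 members and raised Zwint, where 60.4% of tested genes were called (37.3% lower), with a median of −1.26 against −0.06. In DTPA-treated cells the knockdown lowered 41 and raised Zwint, where 53.1% were called (31.7% lower), with a median of −1.43 against −0.04. Large falls were those of Bub1b (−2.60 ± 0.09 for DTPA and −2.92 ± 0.10 for the knockdown), Bub1 (−2.60 ± 0.09 and −2.75 ± 0.10), Kntc1 (−2.44 ± 0.10 and −2.62 ± 0.11), Cenpe (−2.33 ± 0.08 and −2.68 ± 0.09) and Spc24 (−2.50 ± 0.10 and −2.33 ± 0.11). With a pseudocount of 0.1 both differences of Bub1b, Cenpf, Cenpi, Cenpu, Sgo2a, Ska1 and Ttk were over 1.5 times as large. Cenpo, Mis12, Dsn1 and Cdca5 did not pass for DTPA in siZIP10 cells, and Cenpo, Mis12 and Dsn1 did not for the knockdown in DTPA-treated cells. After median-of-ratios scaling, nuclear protein-coding scaling or voom, Cenpo, Dsn1 and Mis12 were called higher with DTPA in siZIP10 cells, so that 4 members rose. The fall of Cdca5 by 0.31 ± 0.09 with the knockdown in DTPA-treated cells (adjusted p = 0.0153) did not pass when replicate 1 of siControl plus DTPA was left out (adjusted p = 0.153), and that of Cenpu (−0.67 ± 0.21, adjusted p = 0.0210) when replicate 2 was (adjusted p = 0.175). Members that DTPA lowered more in control cells were also lowered more by it in siZIP10 cells, which are other libraries (Pearson r = 0.876 and Spearman rho = 0.870 across 45 genes, which are not independent replicates and are all scaled by the same pseudocount). For the knockdown without and with DTPA the values were 0.856 and 0.861.

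Whether DTPA acted more strongly in knockdown cells than in control cells was tested by the interaction, the log2 effect of DTPA with siZIP10 minus that with siControl. It was lower than 0 for 24 members, higher for 5 and not called for 16, where 32.4% of tested genes were called, 20.4% lower and 12.0% higher. The median over the members was −0.56 against −0.02. On the scale of log2(TPM + 1) the largest were Kntc1 (−1.55 ± 0.15, adjusted p = 2.11e-05), Bub1b (−1.50 ± 0.13, adjusted p = 1.48e-05) and Bub1 (−1.45 ± 0.14, adjusted p = 2.54e-05), followed by Cenpe (−1.42 ± 0.11), Spc24 (−1.29 ± 0.14) and Sgo1 (−1.16 ± 0.19). By role, 8 of 11 checkpoint and corona genes, 6 of 10 outer kinetochore genes, 4 of 12 inner kinetochore genes and 2 of 3 SKA genes were lower. The higher ones were Cdca5 (0.55 ± 0.12), Cenpa (0.40 ± 0.05), Dsn1 (0.25 ± 0.05), Zwint (0.21 ± 0.03) and Cdca8 (0.13 ± 0.04). With a pseudocount of 0.1 the interaction of 11 called members grew by over 1.5 times, for example to −2.76 for Cenpf from −0.67 and to −2.25 for Ttk from −0.67, and 25 members were then lower and 4 higher. Bub1b (−2.93) and Cenpf were then the largest, and Kntc1, at −2.21, came after Bub1 (−2.26) and Ttk. The call of Cdca8 was lost in 10 of the 11 cases in which 1 library was left out (adjusted p up to 0.182), that of Sgo2a in 6 (adjusted p up to 0.0868), that of Mad2l1 without either siControl plus DTPA library (adjusted p up to 0.0675) and that of Zwilch when the first of these was left out (adjusted p = 0.0575).

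The same pattern can be read on the TPM scale by multiplying the share of siControl left by DTPA with that left by siZIP10. The product had a median of 30.4% over the members, and the share observed with both treatments had a median of 17.9%. The observed share lay below the product for 35 members (53.4% of tested genes) and below 0.5 of it for 20 (3.34% of tested genes). For Bub1b the product was 15.1% and 1.58% was observed, and for Cenpf 12.5% and 0.803%. For Cdca5 the product was 31.5% and 47.2% was observed, and for Cenpa 32.8% and 43.5%. Incenp, at 35.8% and 37.2%, and Pmf1, at 35.1% and 35.0%, lay close to the product.

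**Figure D5:**
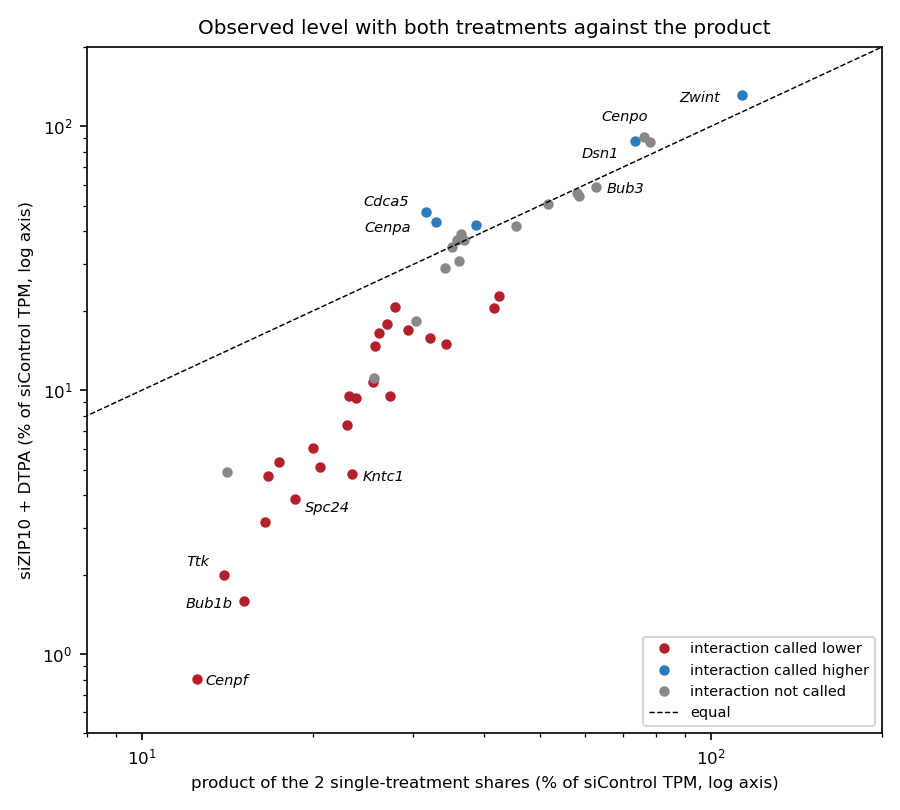
Observed share of the siControl TPM in siZIP10 plus DTPA (y axis, log) against the product of the shares in siControl plus DTPA and siZIP10 (x axis, log) for the 45 members; colours give the interaction call and the dashed line is equality. Cenpf, Bub1b and Ttk lay farthest below the line, and Cdca5 and Cenpa above it.

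Other genes of centromeres, kinetochores and cohesin gave the setting. Of 24 further centromere and kinetochore genes 23 were tested, and 13 fell with DTPA, 15 with siZIP10 and 18 with both, while 1, 1 and 2 rose. Over all tested genes 18.8%, 17.5% and 39.9% were lower in these 3 comparisons, and 9.98%, 13.1% and 26.7% were higher. Birc5, which encodes survivin and partners INCENP and borealin, went from 66.1, 64.3 and 67.8 TPM in siControl to 2.34, 1.59 and 2.16 TPM with both (−4.48 ± 0.08, adjusted p = 1.77e-11), and was left at 3.07% of siControl. The mitotic kinase Plk1 fell by 3.94 ± 0.09 with both. Mad2l1bp, whose product helps take apart checkpoint complexes, rose by 0.60 ± 0.04 with both, and for Ndel1, a dynein regulator, the value was −0.03 ± 0.04 (adjusted p = 0.468). Of 14 genes for cohesin subunits, loading and release, 7 fell with DTPA, 7 with siZIP10 and 11 with both. By limma, the tool used for this list, 0 rose (at an unadjusted p under 0.05 only Wapl was higher, with both). These counts stand beside the same shares of all tested genes, 18.8%, 17.5% and 39.9% lower. The separase gene Espl1 and its inhibitor Pttg1 fell by 3.21 ± 0.10 and 2.52 ± 0.08 with both, whereas the cohesin loader Mau2 fell by 0.29 ± 0.05 and the release factor Wapl was at 0.09 ± 0.04 (adjusted p = 0.0604).

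Markers of other blood cells and the make-up of the libraries moved together with the double treatment. The summed TPM of 7 megakaryocyte markers was 16.2 to 17.5 in siControl, 25.7 to 26.7 with DTPA, 17.2 to 18.7 in siZIP10 and 57.3 to 58.5 with both, and 3 of the 4 tested markers rose with both. For 7 mast cell and basophil markers, of which 4 were at 0 in all libraries, the sum went from 1.45 to 2.31 in siControl to 22.4 to 26.2 with both, mostly Hdc (20.7 to 22.5). For 8 myeloid markers, of which 4 were at 0 in all libraries, it went from 15.7 to 16.5 to 41.7 to 44.3, mostly Spi1 (35.8 to 38.0). For 6 lymphoid markers, of which 3 were at 0, it went from 0.296 to 1.08 to 2.38 to 3.15. Of 10 erythroid genes 7 fell with both and 2 rose, and Slc4a1, the anion exchanger of red cells, fell to 21.7 to 23.2 TPM. Mitochondrial ribosomal RNA made up 1.44% to 1.45% of TPM with both and 0.262% to 0.421% in the other libraries, ribosomal protein genes 10.4% to 10.7% compared with 7.78% to 9.18%. Protein-coding genes of the nucleus made up 77.3% to 79.6%, compared with 82.6% to 84.1%. Scaling to the nuclear protein-coding sum left 43 members lower and Zwint higher with both; the part of the other markers in the members' result was not tested.

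For 9 members an exon shared bases with an exon of another gene of at least 1 TPM on the opposite strand. The shared part was 35.0% of the exon length for Sgo2a (with Kctd18), 26.7% for Cenpu (with Primpol) and 12.3% for Cenpp (with Ippk), and under 10% for the others. The library kit kept the strand, but the strand setting of the counting is not given in the sources used here, so the values of these 3 genes are uncertain.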

How the data were processed

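RNA from 12 stranded mRNA libraries was deposited as TPM per gene, each library summing to 1000000. Per the submitters' processing notes, which give no role or order, the authors used HISAT2 2.1.0, featureCounts, Trimmomatic 0.33, FastQC, edgeR and mm10. Neither the annotation nor the strandedness of their counting is given in the sources used here. Replicates are biological, per the labels. The values of siControl plus DTPA replicate 3 equalled those of siZIP10 replicate 1 for all 55487 genes, so 11 libraries were used. Reads were recovered from TPM times exon length (GENCODE mouse release M21). Of values of up to 20 reads, 98.9% to 99.1% were whole within 0.1. The 11379 genes averaging 1 TPM or more were fitted as log2(TPM + 1) with limma 3.58.1 in R 4.3.3 (trend, 4 group means, 7 residual degrees of freedom, prior 3.21). The p-values were two-sided and adjusted over all genes (Benjamini-Hochberg), and 0.05 was the threshold. Python 3.11.15, pandas 2.3.3, numpy 2.4.6, scipy 1.17.1 and matplotlib 3.10.9 were used. The fit was also run on simulated reads in which only siZIP10 differed, so that run does not cover the wide changes with both treatments.

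The members and the lists were chosen with earlier results of these data known. Values in every library are given for the most abundant member of each role, those with the lowest and the highest difference for siZIP10 against siControl, members that moved against the median and the 3 largest interactions. From the other kinetochore and cohesin lists, the 2 lowest and the 2 highest for siZIP10 are named. Mis12, Dsn1, Cenpf and Ttk, Aurkb from the other kinetochore list, and the sequences shown were chosen after their values were seen. The alternatives were other pseudocounts, filters and scalings, a replicate block, a fit without the trend, fits of the compared groups only, voom on recovered reads, all 12 libraries as labelled, and leaving out each library.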

Additional observations from a re-analysis of the deposited data

Results flagged for a closer look

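For 29 members the log2 effect of DTPA with the knockdown differed from that without it by the interaction test of limma (adjusted p under 0.05, where 32.4% of tested genes were called). The values below are the effect with the knockdown minus the effect without it, so that a negative value is a larger fall with DTPA in knockdown cells. The test uses 2 siControl plus DTPA libraries. The scale of log2(TPM + 1) understates changes of genes with low TPM. With a pseudocount of 0.1 the values of Cenpf and Ttk, both given below as −0.67, were −2.76 and −2.25.

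In centromeric chromatin the difference was −0.56 for Hjurp and −0.90 for Oip5, and it was 0.40 for Cenpa. In the inner kinetochore it was −0.91 for Cenpm, −0.86 for Cenph, −0.66 for Cenpi and −0.61 for Cenpk. In the outer kinetochore it was −1.29 for Spc24, −1.02 for Knl1, −1.0 for Spc25, −0.97 for Nuf2, −0.88 for Nsl1 and −0.74 for Ndc80, whereas it was 0.25 for Dsn1 and 0.21 for Zwint. For the SKA genes Ska2 and Ska3 it was −0.62 and −0.56.

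Among checkpoint and corona genes it was −1.55 for Kntc1, −1.50 for Bub1b, −1.45 for Bub1, −1.42 for Cenpe, −0.67 for Ttk, −0.67 for Cenpf, −0.38 for Mad2l1 and −0.35 for Zwilch. For Cdca8 of the passenger complex it was 0.13, which is the smallest of these values. Among the genes that protect cohesin it was −1.16 for Sgo1, −0.61 for Sgo2a and 0.55 for Cdca5.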

How the results depend on the processing

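The 259 member effects checked one by one kept their sign in all 5653 values from the alternatives. These were all members in the comparisons with siControl and for DTPA within the knockdown, and the called members in the other comparisons. Of 56 effects that were not called and are given as counts only, 47 of 1221 values changed sign, and none of those was called. The number of members that differed between siZIP10 and siControl plus DTPA was 8. It was 13 with median-of-ratios scaling and 17 with voom on recovered reads. With all 12 libraries as labelled, where limma called 0 of all 11379 tested genes, it was 0 (6 at an unadjusted p under 0.05). When 1 library was left out, that number ranged from 4 to 11, and the numbers called were 39 to 42 with DTPA, 44 to 45 with siZIP10, 44 with both, 41 for DTPA within the knockdown, 41 to 42 for the knockdown within DTPA and 25 to 30 for the interaction. For the other 6 comparisons, the counts called in either direction stayed within 1.5 times those reported. Members called higher went from 1 to as many as 4 for DTPA within the knockdown and from 5 to as many as 8 for the interaction, the last with nuclear protein-coding scaling.

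Replicate numbers did not pair the samples: deviations from the group means correlated at −0.06 to 0.06 for 15 pairs with the same number and at −0.09 to 0.07 for 30 others. With the replicate number as a block, 40 members were called with DTPA, 44 with siZIP10, 44 with both, 41 for DTPA within the knockdown, 41 for the knockdown within DTPA, 8 for siZIP10 against DTPA and 28 for the interaction. Depth limits the members with few reads: in double-treated libraries Ska1, Ttk and Cenpf were down to 3, 4 and 4 reads.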

Other observations

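Esco2, the acetyltransferase that establishes cohesion in S phase, is named from the cohesin list for its interaction on the scale of log2(TPM + 1), and was chosen after its values were seen. It stood at 27.2 ± 2.11 TPM in siControl (SD, n = 3), 19.3 ± 0.133 TPM with DTPA (n = 2), 18.7 ± 0.724 TPM in siZIP10 (n = 3) and 1.41 ± 0.0751 TPM with both (n = 3). The log2 difference of Esco2 from siControl was −0.47 ± 0.07 with DTPA, −0.52 ± 0.06 with siZIP10 and −3.55 ± 0.06 with both. The interaction of Esco2 was −2.56 ± 0.09 (limma, adjusted p = 2.77e-08), and its double-treated libraries were 5.16% of siControl.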
